A study of Mus musculus with 9 samples.

Results

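Cortical area patterning transcription factors are nuclear proteins, found in graded amounts across the embryonic cortex, that give its rostral, caudal, medial and lateral parts their identities. The genes described here were chosen by name, as the table entries whose gene symbol is *Emx1*, *Emx2*, *Nr2f1*, *Nr2f2*, *Sp8*, *Dmrta2*, *Lmo3*, *Lmo4* or *Bhlhe22*, and 9 of these 9 genes were found among 14670 genes listed. The 9 libraries were made from total RNA of mouse cerebral cortex microdissected at E16.5. There were 3 libraries from controls, 3 from *Fzd3* -/- embryos and 3 from *Celsr3* -/- embryos. *Fzd3* encodes a Frizzled receptor of the Wnt and planar polarity pathways, and *Celsr3* an atypical cadherin that acts with it in axon guidance. Mice were on a mixed C57Bl/6 and CD1 background, and both mutations are present in every cell from conception on, so that a change in cortex can also come from other tissues. The *Fzd3* allele lacks exon 3. The labels give controls as +/+, whereas the methods name heterozygous as well as wild-type littermates, and the number of embryos behind a library is not stated, so p-values measure the spread between libraries.

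During cortical development, signalling centres at the edges of the pallium set up gradients of transcription factors in dividing progenitors. FGF proteins from the rostral end favour *Sp8* and oppose *Emx2* and *Nr2f1*, whereas Wnt and BMP proteins from the caudomedial hem favour *Emx2* and *Dmrta2*. Neurons born from these progenitors then refine area identity with factors of their own, such as *Bhlhe22*, *Lmo4* and *Lmo3*, so levels of the whole set depend on which stretch of cortex was taken as well as on its mix of progenitors and neurons.

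Values are in CPM, reads scaled by a factor for each library. Listed genes summed to between 990141 CPM, in *Fzd3* mutant 2, and 1012199 CPM, in control 2. The upper sum is more than scaling to the library total alone can give, so a further factor was part of the scaling. The steps between values correspond to 39857305 to 69600589 reads on the listed genes per library, with 3 reads worth 0.0427 to 0.0752 CPM. All 9 genes lay above these levels in every library, the lowest value being 2.80 CPM for *Sp8* in *Celsr3* mutant 4, and all passed the filter of a mean of 0.5 CPM. Genotypes were compared by limma, applied to log2(CPM + 0.5), in a fit of all 14670 genes and 9 libraries, and were called when the two-sided p, adjusted by the Benjamini-Hochberg method over all genes, was under 0.05. Fold changes on this scale understate changes of genes with low values. As a check of the labels, *Celsr3* was at 122, 139 and 118 CPM in *Celsr3* mutants 1, 2 and 4 against 196, 243 and 214 CPM in controls 1, 2 and 3, while *Fzd3* mutants had 253, 213 and 255 CPM. The *Celsr3* mutant libraries were thus the lowest, without overlap (log2 difference from control -0.78, adjusted p = 0.0018). *Fzd3* was at 46.5, 39.8 and 59.6 CPM in *Fzd3* mutants against 58.0, 67.7 and 46.9 CPM in controls, with overlap, and since the table gives a value for the whole gene and not for the deleted exon, this does not check the label.

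A pair of libraries stood apart. Control 3 had the highest *Nr2f2* value of its genotype, 54.6 CPM against 37.4 and 33.2 CPM, and the lowest *Dmrta2* and *Emx1* values. In *Celsr3* mutant 4, 5 of 8 meningeal genes analysed here summed to 175 CPM, against 10.5 to 21.0 CPM in the other 8 libraries. The most abundant of them, the collagen gene *Col3a1*, was at 87.6 CPM there and at 6.86 and 4.95 CPM in *Celsr3* mutants 1 and 2. Calls of the 9 genes that were lost without either library are named below.

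*Fzd3* mutant cortex had less RNA of the progenitor factors *Emx1*, *Emx2*, *Dmrta2* and *Nr2f1* than control cortex, and more of the neuronal factors *Bhlhe22* and *Lmo4*. Of the 9 genes, 4 were lower (14.8% of all genes were called lower) and 2 were higher (15.0% of all genes were called higher), and 3 were not called. The number called fell from 6 to 3 without *Fzd3* mutant 2 or without control 2. The median log2 difference was -0.23 over the 9 genes and 0.00 over all genes. In bulk tissue, fewer cells of a type and less RNA per cell cannot be told apart. The question behind the comparison is whether the cortices of the 3 genotypes carried the same area identity and were dissected alike.

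**Figure D1:**
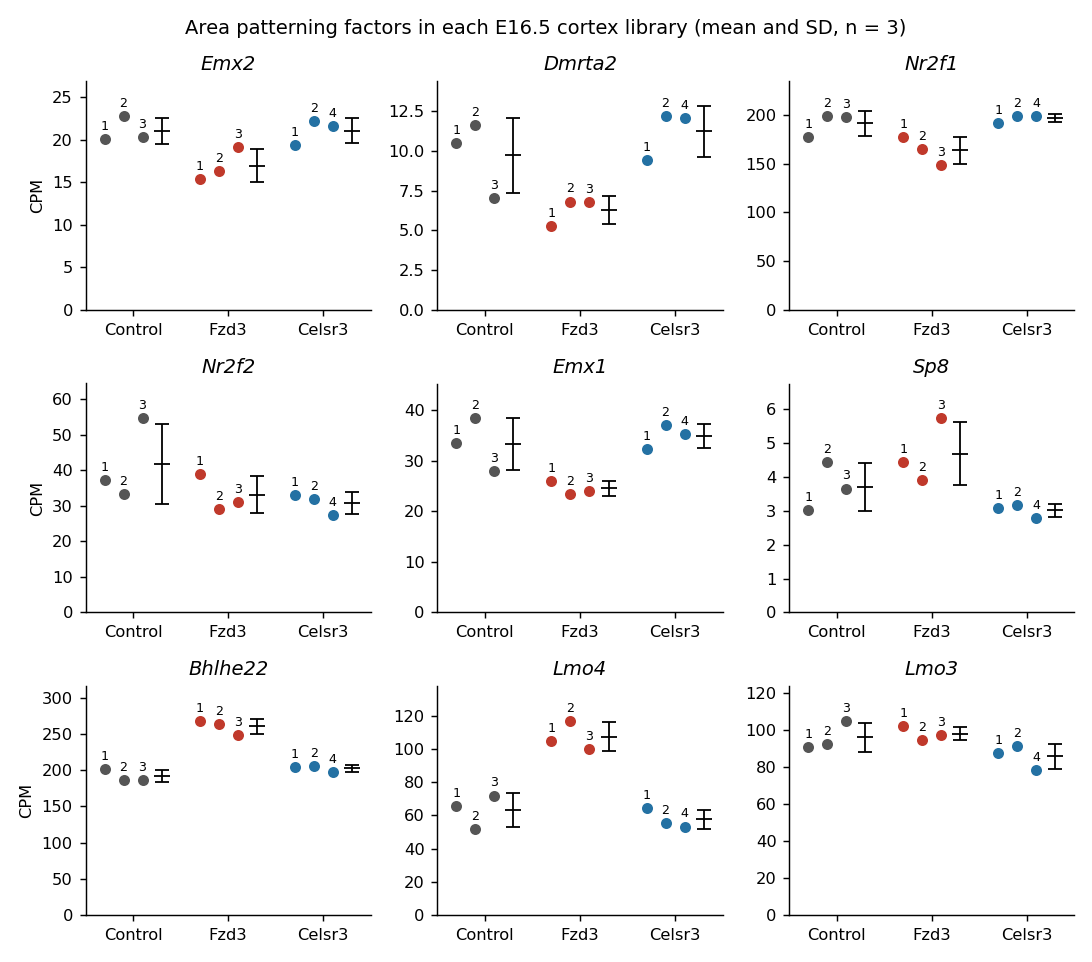
CPM of each of the 9 genes (vertical axes, starting at 0) in each library (points, numbered by replicate) of control, *Fzd3* mutant and *Celsr3* mutant cortex, with the mean and SD of 3 libraries beside them. *Lmo4* and *Bhlhe22* in *Fzd3* mutants lie above all other libraries (100 to 117 and 249 to 268 CPM), and *Emx1* lies below them (23.4 to 26.1 CPM).

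Among the factors that are high in caudal progenitors, *Emx2* encodes a homeodomain protein that promotes caudal and medial areas. Its gene lies on chromosome 19, 59458372 to 59465357, plus strand (GRCm38). *Emx2* was at 20.1, 22.8 and 20.3 CPM in controls 1 to 3 and at 15.4, 16.3 and 19.2 CPM in *Fzd3* mutants 1 to 3. In *Celsr3* mutants 1, 2 and 4 it was at 19.4, 22.2 and 21.6 CPM. All *Fzd3* mutant libraries were below all others, *Fzd3* mutant 3 by a small margin. The means were 17.0 ± 2.0 CPM in *Fzd3* mutants and 21.1 ± 1.5 CPM in controls (SD, n = 3), a log2 difference of -0.31 (95% interval -0.51 to -0.10, limma adjusted p = 0.0282). The call was lost when *Fzd3* mutant 1 was left out (adjusted p = 0.111), *Fzd3* mutant 2 (0.0882) or control 2 (0.106). The noncoding *Emx2os*, which overlaps the *Emx2* gene by 264 bases on the opposite strand, was at 2.18, 2.02 and 2.43 CPM in controls. It was at 0.418, 1.32 and 0.954 CPM in *Fzd3* mutants, and at 0.568, 1.89 and 0.897 CPM in *Celsr3* mutants. Both mutants were below all controls, with a call in *Fzd3* mutants (log2 difference -1.01, adjusted p = 0.0264) and none in *Celsr3* mutants (-0.82, adjusted p = 0.768). The use of strand in counting is not given in the sources used here, so reads of a gene and its antisense partner cannot be told apart where they overlap.

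*Dmrta2*, on chromosome 4 (109978053 to 109983687, plus strand), encodes a DM domain protein that keeps caudomedial progenitors in their fate and acts upstream of *Emx2*. Its values were 10.5, 11.6 and 7.05 CPM in controls 1 to 3, 5.30, 6.82 and 6.76 CPM in *Fzd3* mutants, and 9.40, 12.2 and 12.1 CPM in *Celsr3* mutants. All *Fzd3* mutant libraries were lowest, although control 3 was only just above them. The mean was 6.29 ± 0.864 CPM in *Fzd3* mutants and 9.73 ± 2.39 CPM in controls (SD, n = 3), with a log2 difference of -0.57 (95% interval -0.95 to -0.19, limma adjusted p = 0.0305), in size the largest fall among the 9 genes. Without *Fzd3* mutant 1 the adjusted p was 0.117, without *Fzd3* mutant 2 0.0506, without control 1 0.101 and without control 2 0.117, and it was 0.0553 with no trend of the variance on abundance.

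Upstream sequence is shown for the genes with the largest fall and the largest rise in *Fzd3* mutants, *Dmrta2* and *Lmo4*, and for the only rostral factor, *Sp8*. RefSeq promoter windows (GRCm38.p6) were found for 8 of the 9 genes. Each is printed from 5′ to 3′ on the strand of its gene and ends before the first base of any start annotated for the gene. The windows are chr4:109977775-109977988 (plus strand, 214 bases), chr3:144205256-144205505 (minus strand, 250 bases) and chr12:118846079-118846287 (plus strand, 209 bases), and the *Dmrta2* window begins inside the noncoding antisense gene *Dmrta2os*. Capitals mark matches, on either strand, to motifs bound by families that the 9 genes belong to, namely GGGCGG (the GC box of Sp proteins), AGGTCA (nuclear receptors), TAATTA (homeodomain proteins) and CANNTG (the E-box of bHLH proteins).
Dmrta2: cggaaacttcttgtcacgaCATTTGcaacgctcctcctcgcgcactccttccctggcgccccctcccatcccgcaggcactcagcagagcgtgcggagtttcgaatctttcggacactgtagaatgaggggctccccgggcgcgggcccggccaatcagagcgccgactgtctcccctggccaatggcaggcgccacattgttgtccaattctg
Lmo4: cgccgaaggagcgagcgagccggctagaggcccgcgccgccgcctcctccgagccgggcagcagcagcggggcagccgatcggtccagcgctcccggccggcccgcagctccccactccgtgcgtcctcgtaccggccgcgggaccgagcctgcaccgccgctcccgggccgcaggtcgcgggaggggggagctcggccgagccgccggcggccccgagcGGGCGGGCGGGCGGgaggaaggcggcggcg
Sp8: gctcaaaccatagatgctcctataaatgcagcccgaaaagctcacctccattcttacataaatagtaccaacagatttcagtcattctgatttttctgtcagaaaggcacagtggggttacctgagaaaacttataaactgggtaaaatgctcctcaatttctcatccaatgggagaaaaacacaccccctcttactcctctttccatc
The *Dmrta2* window held 1 match to CANNTG, which 61.3% of the 32851 RefSeq promoter windows hold within the same length. The *Lmo4* window held 3 overlapping matches to GGGCGG, which 32.7% hold. The *Sp8* window held 0 matches to any of the motifs, where 60.5% hold CANNTG, 26.5% GGGCGG, 11.9% AGGTCA and 4.36% TAATTA. A match is a description of the letters and shows no binding.

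*Nr2f1* encodes COUP-TFI, an orphan nuclear receptor that sets the balance of caudal sensory and rostral motor areas, and lies on chromosome 13 (78188973 to 78199757, minus strand). It was at 177, 199 and 198 CPM in controls, at 177, 165 and 149 CPM in *Fzd3* mutants and at 192, 199 and 199 CPM in *Celsr3* mutants. *Fzd3* mutant 1 and control 1 were at the same level, so these genotypes overlapped, while *Fzd3* mutants 2 and 3 were below every other library. The mean fell from 191 ± 12.7 to 163 ± 14.1 CPM (SD, n = 3), with a log2 difference of -0.23 (95% interval -0.37 to -0.09, limma adjusted p = 0.021), the smallest of the called differences. This call was lost without *Fzd3* mutant 2 (adjusted p = 0.0509), *Fzd3* mutant 3 (0.0617), control 2 (0.0748) or control 3 (0.0602), and with no trend of the variance (0.0554). With replicate number as a block in the limma fit it was also lost (adjusted p = 0.0506). *A830082K12Rik*, a noncoding gene on the opposite strand that overlaps *Nr2f1* by 1741 bases, had the pattern nearest to it among the 11585 genes whose mean reached 5 CPM. Its mean was 53.3 CPM in controls, 44.2 CPM in *Fzd3* mutants and 52.2 CPM in *Celsr3* mutants, and it too was called lower in *Fzd3* mutants (log2 difference -0.27, adjusted p = 0.00627).

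*Nr2f2* encodes the related receptor COUP-TFII, found in caudolateral pallium, in interneurons from the caudal ganglionic eminence and in vessel walls, and lies on chromosome 7 (70351944 to 70366735, minus strand). Controls were at 37.4, 33.2 and 54.6 CPM, *Fzd3* mutants at 39.0, 29.2 and 31.0 CPM and *Celsr3* mutants at 33.1, 31.9 and 27.4 CPM. Control 3 was far above every other library, and *Fzd3* mutants overlapped controls. The log2 difference between *Fzd3* mutants and controls was -0.31 (95% interval -0.67 to 0.05, limma adjusted p = 0.176) and was not called. It lay between -0.46 and -0.10 over 19 other settings and was called in 0 of them.

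*Emx1*, a homeodomain gene of the whole pallium on chromosome 6 (85187438 to 85204462, plus strand), marks dorsal progenitors and their excitatory neurons rather than an area. It was at 33.5, 38.4 and 28.0 CPM in controls, 26.1, 23.4 and 24.1 CPM in *Fzd3* mutants and 32.3, 37.0 and 35.4 CPM in *Celsr3* mutants. The *Fzd3* mutant libraries were lowest and lay close together, and control 3 was the nearest to them. The mean was 24.6 ± 1.41 CPM in *Fzd3* mutants and 33.3 ± 5.19 CPM in controls (SD, n = 3), which is 26.2% lower (log2 difference -0.42, 95% interval -0.64 to -0.20, limma adjusted p = 0.00963), and the call held in all 19 other settings.

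*Sp8* encodes a zinc finger protein of rostromedial progenitors that supports *Fgf8* expression and that also marks interneurons bound for the olfactory bulb. The gene lies on chromosome 12 (118846329 to 118852576, plus strand). Its values were 3.02, 4.43 and 3.66 CPM in controls, 4.44, 3.91 and 5.73 CPM in *Fzd3* mutants and 3.09, 3.17 and 2.80 CPM in *Celsr3* mutants. *Fzd3* mutants were in the upper part of the range and overlapped controls, but not *Celsr3* mutants. The log2 difference between *Fzd3* mutants and controls was 0.30 (95% interval -0.05 to 0.65, limma adjusted p = 0.175) and was not called.

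The remaining 3 genes act mainly in postmitotic neurons. *Bhlhe22*, on chromosome 3 (18054174 to 18057517, plus strand), encodes a bHLH repressor needed for the identity of sensory areas and for corticospinal tracts. It was at 201, 186 and 187 CPM in controls, 268, 264 and 249 CPM in *Fzd3* mutants and 204, 206 and 197 CPM in *Celsr3* mutants. *Fzd3* mutants lay above all other libraries, with a spread within each genotype of under 5% of the mean. The mean rose from 191 ± 8.12 to 260 ± 9.87 CPM (SD, n = 3), a log2 difference of 0.44 (95% interval 0.35 to 0.54, limma adjusted p = 6.27e-05).

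*Lmo4*, also on chromosome 3 (144188530 to 144205220, minus strand), encodes a LIM-only adaptor protein found in rostral motor and caudal visual cortex, where it sorts callosal from subcortical neurons. Controls were at 65.4, 52.0 and 72.0 CPM, *Fzd3* mutants at 105, 117 and 100 CPM and *Celsr3* mutants at 64.2, 55.2 and 53.3 CPM. The lowest *Fzd3* mutant library was above the highest of the rest. The mean was 107 ± 8.73 CPM in *Fzd3* mutants and 63.1 ± 10.2 CPM in controls (SD, n = 3), 70.2% higher and the largest change of the 9 genes (log2 difference 0.77, 95% interval 0.53 to 1.01, limma adjusted p = 0.000539). The calls of *Bhlhe22* and *Lmo4* held in all 19 other settings.

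*Lmo3*, a related LIM-only gene on chromosome 6 (138362918 to 138581968, minus strand), is expressed in deep-layer neurons of some areas. It was at 90.7, 92.5 and 105 CPM in controls, 102, 94.8 and 97.4 CPM in *Fzd3* mutants and 87.8, 91.3 and 78.3 CPM in *Celsr3* mutants. *Fzd3* mutants lay within the control range, and *Celsr3* mutants were at or below its lower end. The log2 difference between *Fzd3* mutants and controls was 0.03 (95% interval -0.12 to 0.18, limma adjusted p = 0.778). The noncoding *A830011K09Rik*, on the opposite strand within *Lmo3*, had mean values of 1.60 CPM in controls and 2.32 CPM in *Fzd3* mutants and was not called (log2 difference 0.44, adjusted p = 0.0693).

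*Celsr3* mutant cortex gave no called difference from control in any of the 9 genes. With limma, 0 of 9 were called lower (0.177% of all genes were) and 0 of 9 higher (0.130% of all genes were). At an unadjusted p under 0.05 there were 2 of 9, *Nr2f2* and *Lmo3*, both lower (5.45% of all genes were under it), and a limma fit with precision weights from reads also called 0. For *Nr2f2* the log2 difference was -0.41 (95% interval -0.76 to -0.05, adjusted p = 0.842), and *Celsr3* mutant libraries lay below all controls, the nearest control being at 33.2 and the highest *Celsr3* mutant at 33.1 CPM. For *Lmo3* it was -0.16 (95% interval -0.31 to -0.01, adjusted p = 0.884), with overlap. The other 7 genes had log2 differences between -0.24, for *Sp8*, and 0.22, for *Dmrta2*, and the widest 95% interval among these, that of *Dmrta2*, ran from -0.17 to 0.60. Without control 3 the difference was -0.20 for *Nr2f2*, -0.10 for *Lmo3* and 0.01 for *Dmrta2*. Intervals of the other genes called in *Fzd3* mutants were -0.15 to 0.30 for *Emx1*, -0.20 to 0.20 for *Emx2*, -0.10 to 0.18 for *Nr2f1*, -0.02 to 0.18 for *Bhlhe22* and -0.37 to 0.12 for *Lmo4*. The 2 comparisons with control share the 3 control libraries, so no overlap or correlation between them is given.

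The direct comparison of the mutants does not use the controls for its difference. *Fzd3* mutants were lower than *Celsr3* mutants in 4 of 9 genes (14.3% of all genes were called lower) and higher in 3 of 9 (15.3% were called higher). *Dmrta2* differed by -0.79 (95% interval -1.17 to -0.40, limma adjusted p = 0.00655), *Emx1* by -0.50 (adjusted p = 0.00418), *Emx2* by -0.31 (0.0284) and *Nr2f1* by -0.27 (0.0096). On the other side, *Lmo4* differed by 0.90 (95% interval 0.65 to 1.14, adjusted p = 0.000267), *Bhlhe22* by 0.36 (0.000252) and *Sp8* by 0.55 (95% interval 0.20 to 0.89, adjusted p = 0.0239). In 8 of the 9 genes the 3 libraries of each mutant did not overlap, as in 44.9% of all genes, the exception being *Nr2f2*, at 0.09 (adjusted p = 0.705). *Lmo3* differed by 0.19 with an adjusted p of 0.0553, and was called without *Celsr3* mutant 2 (0.0449), without control 3 (0.0294) and with only these genotypes in the fit (0.04). Calls of *Emx2* and *Sp8* were lost without *Celsr3* mutant 4, the library with high meningeal RNA (adjusted p = 0.0832 and 0.075). That of *Emx2* was also lost without *Fzd3* mutant 1 (0.111), *Fzd3* mutant 2 (0.0896) or *Celsr3* mutant 2 (0.0996), and that of *Sp8* without *Fzd3* mutant 1 (0.0543) or 3 (0.0776). With replicate number as a block in the limma fit, *Emx2* (adjusted p = 0.0778), *Sp8* (0.171) and *Nr2f1* (0.0981) were not called between the mutants.

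**Figure D2:**
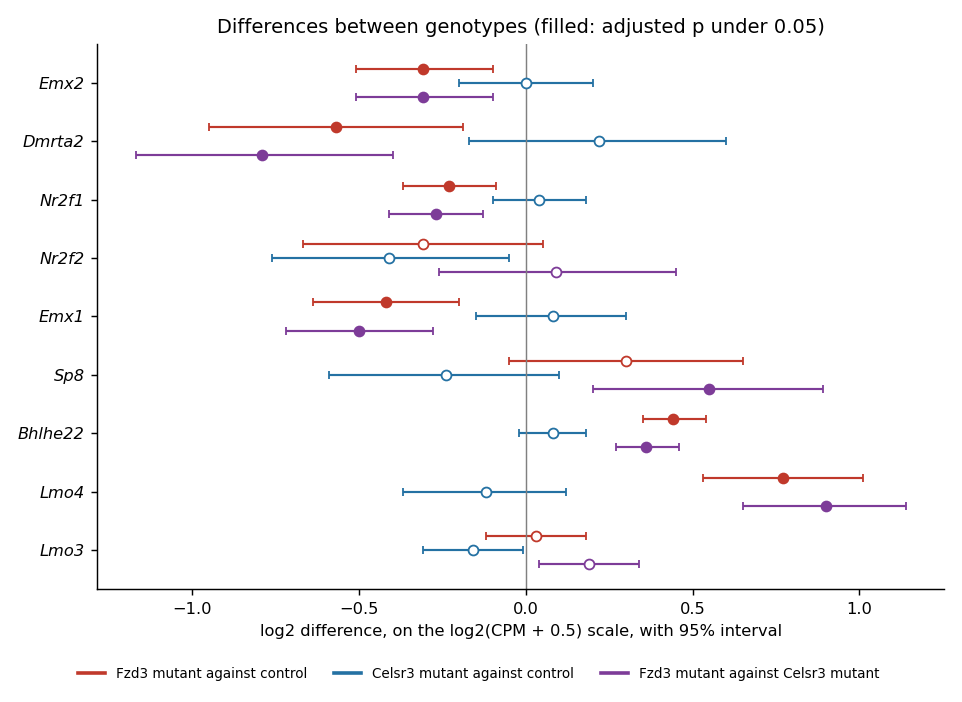
Log2 difference of each of the 9 genes, on the log2(CPM + 0.5) scale, with its 95% interval from limma, for *Fzd3* mutant against control, *Celsr3* mutant against control and *Fzd3* mutant against *Celsr3* mutant. Filled points have an adjusted p under 0.05. *Lmo4* lies farthest to the right in both comparisons with *Fzd3* mutants (0.77 and 0.90), *Dmrta2* farthest to the left (-0.57 and -0.79), and no *Celsr3* mutant difference from control is filled.

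Levels can be compared between genes only per length of transcript. In controls, CPM per kb of annotated exon was 57.2 ± 2.43 for *Bhlhe22*, 37.6 ± 2.49 for *Nr2f1*, 18.7 ± 1.55 for *Lmo3*, 17.9 ± 2.89 for *Lmo4*, 15.2 ± 2.38 for *Emx1*, 7.01 ± 0.501 for *Emx2*, 4.84 ± 1.31 for *Nr2f2*, 3.33 ± 0.819 for *Dmrta2* and 0.813 ± 0.155 for *Sp8* (SD, n = 3). The neighbours *Lmo3* and *Lmo4*, *Lmo4* and *Emx1*, and *Nr2f2* and *Dmrta2* overlapped between libraries in this order, and the other neighbours did not. Among the factors of caudal progenitors, the level of *Nr2f1* was thus far above those of *Emx2*, *Nr2f2* and *Dmrta2*, and the rostral factor *Sp8* was the lowest of the 9. In *Fzd3* mutants *Lmo4* stood after *Bhlhe22* and *Nr2f1*, at 30.4 CPM per kb, against 32.1 for *Nr2f1*, with overlap, and apart from *Lmo3* at 19.1. With the longest annotated transcript as the length, *Lmo4* stood above *Nr2f1* there (64.4 and 51.0 CPM per kb). Only 3 of the 9 genes kept their place in controls under this length, and *Nr2f1* then stood above *Bhlhe22* (59.7 and 57.2 CPM per kb), since the annotated exons of *Nr2f1* sum to 5093 bases and its longest transcript to 3207.

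**Figure D3:**
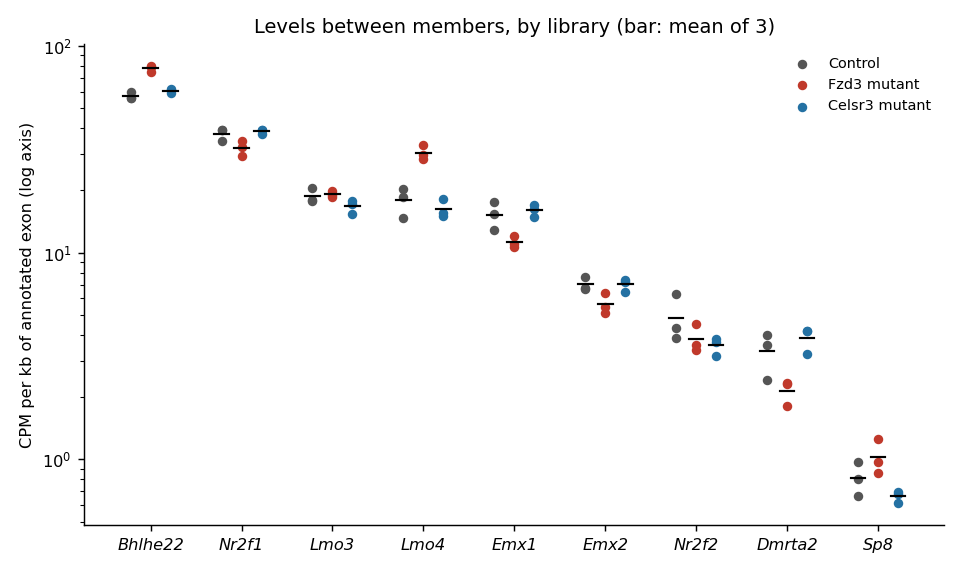
CPM per kb of annotated exon (log axis) of the 9 genes, ordered by their mean in controls, with a point for each library and a bar for each mean of 3. Levels in controls run from 57.2 for *Bhlhe22* to 0.813 for *Sp8*, and *Lmo4* in *Fzd3* mutants stands clear of its other libraries.

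To describe rostrocaudal balance in the tissue taken, the mean log2(CPM + 0.5) of *Emx2*, *Dmrta2*, *Nr2f1* and *Nr2f2* minus that of *Sp8* was computed in each library. Controls 1 to 3 were at 3.32, 2.91 and 3.12, *Fzd3* mutants at 2.52, 2.66 and 2.20, and *Celsr3* mutants 1, 2 and 4 at 3.23, 3.33 and 3.42. The 3 *Fzd3* mutant libraries were the lowest, while *Celsr3* mutants and controls overlapped. Genotype means were 3.12 ± 0.202, 2.46 ± 0.236 and 3.32 ± 0.0958 (SD, n = 3). Leaving *Nr2f2* out, which control 3 sets apart, gave 2.36, 2.63 and 2.16 in *Fzd3* mutants and 2.92 to 3.28 in controls. A balance made of the genes under study has no test, and *Sp8*, its only rostral term, was not itself called against control. *Sp8* also marks interneurons, and *Emx2* and *Dmrta2* are expressed by progenitors. The balance can thus follow the mix of cells as well as position, and this was not tested.

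**Figure D4:**
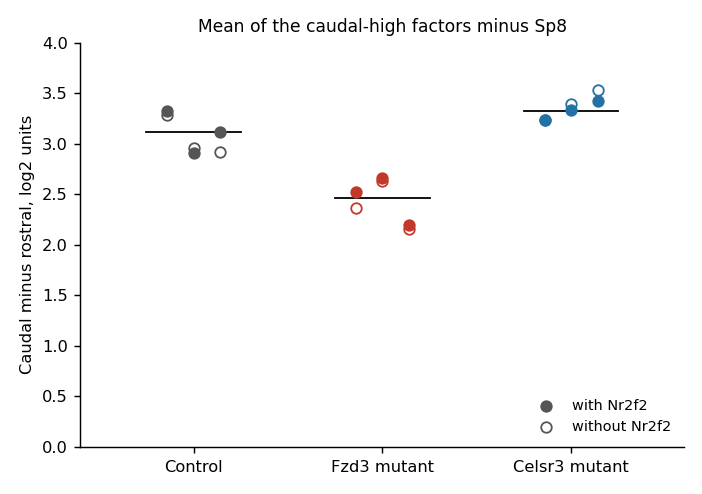
Mean log2(CPM + 0.5) of the caudal-high factors *Emx2*, *Dmrta2*, *Nr2f1* and *Nr2f2* minus that of *Sp8* (vertical axis, log2 units) in each library, with *Nr2f2* (filled) and without it (open), and the mean of the filled points as a line. *Fzd3* mutant libraries lie between 2.20 and 2.66, below all others.

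Other regulators of area identity in progenitors also had less RNA in *Fzd3* mutants. Of 11 listed, 5 were lower, 0 higher in limma and 9 had an unadjusted p under 0.05, as did 41.4% of all genes, with a median log2 difference of -0.55. They were *Tcf7l1*, a repressor of Wnt target genes (-1.37, adjusted p = 0.000147), *Gli3*, which the hem needs to form (-0.86, adjusted p = 0.000541), *Pax6*, which favours rostrolateral areas (-0.70, adjusted p = 0.00012), the FGF receptor *Fgfr3* (-0.55, adjusted p = 0.00505) and the cortical selector *Lhx2* (-0.22, adjusted p = 0.0247). *Pax6* was at 76.8, 82.3 and 71.6 CPM in controls, 42.5, 47.9 and 50.6 CPM in *Fzd3* mutants and 68.0, 73.8 and 79.3 CPM in *Celsr3* mutants. Both *Pax6* and *Emx2*, which oppose each other along the rostrocaudal axis, were lower in *Fzd3* mutants. *Pax6* is also a radial glia gene, on a list of which 7 of 10 were lower, and the part of the cell mix was not tested. The call of *Lhx2* was lost in 5 of 9 fits that left out a library, with an adjusted p of up to 0.0933 without control 2. The *Dmrta2* relative *Dmrt3* was not called (-0.76, adjusted p = 0.07), and had values of 1.39, 2.13 and 0.903 CPM in controls and 0.511 to 0.706 CPM in *Fzd3* mutants. Without control 3, 8 of the 11 were called. Against *Celsr3* mutants, *Fzd3* mutants were lower in 7 of 11, *Dmrt3* among them (-0.90, adjusted p = 0.0382).

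Signals from the patterning centres gave a mixed picture. Of 11 genes of rostral FGF signalling and its targets, 8 were analysed here, and 3 were higher in *Fzd3* mutants than in controls, all of them feedback inhibitors that FGF signalling induces, *Spry4* (0.74, adjusted p = 0.00701), *Dusp6* (0.38, adjusted p = 0.00513) and *Spry2* (0.28, adjusted p = 0.0185). *Spry4* was at 2.93, 2.02 and 3.36 CPM in controls and 4.27, 5.61 and 4.83 CPM in *Fzd3* mutants, without overlap. *Dusp6* was also above all controls (25.2 to 28.2 CPM) in *Celsr3* mutants, at 30.8, 30.5 and 36.5 CPM. It was not called there (0.28, limma adjusted p = 0.508), and *Spry2* and *Spry4* differed from control by -0.17 and -0.12 in *Celsr3* mutants. The most abundant FGF target, *Etv5*, was not called (-0.19, adjusted p = 0.156), nor was *Etv1* against controls (0.32, adjusted p = 0.075), although it was against *Celsr3* mutants (0.57, adjusted p = 0.00635). *Spry2* was no longer called without *Fzd3* mutant 1 or control 2, with an adjusted p of up to 0.0702. Of 14 signals of the hem and medial wall, 7 were analysed here. *Rspo2*, which encodes a secreted enhancer of Wnt signalling, was called higher (1.64, adjusted p = 0.000149), at 11.4, 9.61 and 10.2 CPM in *Fzd3* mutants against 3.29, 2.18 and 3.64 CPM in controls. The most abundant of them, its relative *Rspo3*, was not called against controls (-0.36, adjusted p = 0.0504) and was lower than in *Celsr3* mutants (-0.61, adjusted p = 0.00458), as was the Wnt target *Lef1* (-0.49, adjusted p = 0.0343), whereas *Wnt5a* was higher than in *Celsr3* mutants (0.63, adjusted p = 0.00573). Of 6 signals of the antihem, the lateral edge of the pallium, 4 were analysed here and 2 were higher than in controls, *Sfrp2* (0.64, adjusted p = 0.000983) and *Nrg3* (0.34, adjusted p = 0.0121), the latter not without *Fzd3* mutant 1 (adjusted p = 0.0539), and *Tgfa* was called against *Celsr3* mutants (0.58, adjusted p = 0.0419). Without control 3, 5 of the FGF and 3 of the hem genes were called, and 3 of the hem genes also without *Fzd3* mutant 3.

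Among 15 genes with area-graded expression in cortical neurons, 3 were lower and 5 higher in *Fzd3* mutants than in controls, and 13 had an unadjusted p under 0.05 (41.4% of all genes had), with a median log2 difference of 0.26. The lower genes were the rostral and deep-layer genes *Tbr1* (-0.27, adjusted p = 0.00345) and *Auts2* (-0.35, adjusted p = 0.000976), and the Eph receptor gene *Epha5* (-0.20, adjusted p = 0.0031). The cell adhesion gene *Cdh6* was higher (1.00, adjusted p = 0.000427), at 18.5, 16.2 and 19.5 CPM against 8.82, 9.36 and 8.08 CPM in controls, as were *Efna5*, a guidance ligand (0.52, adjusted p = 0.00288), *Cdh10* (0.42, adjusted p = 0.013), *Id2* (0.26, adjusted p = 0.00196) and *Tenm3* (0.30, adjusted p = 0.0329). *Cdh10* was not called without *Fzd3* mutant 1 or control 2, nor *Tenm3* in 4 fits that left out a library, with adjusted p up to 0.0516 and 0.114. *Crym* and *Cyp26b1* differed widely between libraries of a genotype. *Cyp26b1*, which breaks down retinoic acid, was at 1.87, 0.887 and 6.27 CPM in controls, 6.85, 6.44 and 2.20 CPM in *Fzd3* mutants and 2.56, 0.381 and 0.498 CPM in *Celsr3* mutants. Control 3 and *Fzd3* mutants 1 and 2 were high for this gene, and the difference from control was not called (0.88, adjusted p = 0.307). *Crym*, higher in rostral and medial cortex, was at 13.7, 4.81 and 13.9 CPM in controls, with control 2 low, and at 26.1, 29.2 and 12.4 CPM in *Fzd3* mutants, with *Fzd3* mutant 3 low (1.08, adjusted p = 0.0558). Both were called between the mutants (1.89, adjusted p = 0.0372, and 1.76, adjusted p = 0.00623), as was *Pcdh8* (0.23, adjusted p = 0.0424). In *Celsr3* mutants 0 of these 15 genes were called against control in limma, and 1 had an unadjusted p under 0.05. This was *Cdh6*, at 15.4, 9.92 and 13.0 CPM, above all controls (0.50, limma unadjusted p = 0.0038, adjusted p = 0.422). Of all genes, 10.4% had no overlap between *Celsr3* mutants and controls.

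Progenitors express *Emx1*, *Emx2*, *Dmrta2*, *Nr2f1* and *Sp8*, though *Emx1* also marks excitatory neurons. Markers of progenitors were lower in the *Fzd3* mutant libraries, in which *Sp8* was not lower (0.30, limma adjusted p = 0.175). All 9 of 9 genes of cycling cells were called lower in *Fzd3* mutants than in controls, as were 14.8% of all genes. The median log2 difference of these 9 was -0.75, led by *Ccnb1* (-0.89, adjusted p = 8.78e-06), *Aurkb* (-0.84, adjusted p = 0.000231) and *Mki67* (-0.81, adjusted p = 0.0002). Their summed level was 924, 991 and 840 CPM in controls, 514, 549 and 602 CPM in *Fzd3* mutants and 822, 895 and 952 CPM in *Celsr3* mutants, and the most abundant was *Top2a* (-0.79, adjusted p = 0.000231). *Cdk1* was lower too (-0.75, adjusted p = 6.39e-05). Of 10 radial glia genes, 7 were lower and 0 higher in limma, with 7 at an unadjusted p under 0.05 (41.4% of all genes) and a median of -0.52, among them *Nes* (-0.67, adjusted p = 0.000325), *Hes5* (-0.66, adjusted p = 0.00227), *Vim* (-0.62, adjusted p = 8.14e-05) and *Hes1* (-0.56, adjusted p = 0.0132), the last not without *Fzd3* mutant 1 or control 2 (up to 0.0539). Summed, they were at 1390, 1450 and 1400 CPM in controls, 1070, 1130 and 1010 CPM in *Fzd3* mutants and 1260, 1300 and 1380 CPM in *Celsr3* mutants, and the most abundant, *Fabp7*, was not called (-0.18, adjusted p = 0.181). *Eomes*, which marks intermediate progenitors and, with *Tbr1*, mitral cells of the olfactory bulb, was lower as well (-0.67, adjusted p = 0.000764). The called progenitor factors had log2 differences of -0.23 to -0.57, beside medians of -0.75 and -0.52 for these lists. The part of the progenitor markers in the levels of the area factors was not tested.

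Cortical neuron genes as a list did not move in one direction. Of all genes, 14.8% were called lower and 15.0% higher in *Fzd3* mutants than in controls. Of 10 analysed here out of 12 listed, 4 were lower and 2 higher in *Fzd3* mutants, with a median of 0.02, and their summed level was 6840, 6870 and 6600 CPM in controls, 7140, 6910 and 7140 CPM in *Fzd3* mutants and 7010, 7030 and 6670 CPM in *Celsr3* mutants. The most abundant, *Dcx*, differed by 0.03 (adjusted p = 0.689). *Bcl11b* (-0.46, adjusted p = 0.000351), *Fezf2* (-0.44, adjusted p = 0.000552), both of subcerebral neurons, *Neurod6* (-0.22, adjusted p = 0.00151) and *Neurod2* (-0.14, adjusted p = 0.0361) were lower. The call of *Neurod2* was lost in 5 of 9 fits that left out a library (up to 0.133, without control 2). *Bhlhe22* and *Lmo4* were thus higher in libraries where the summed level of neuron genes was 6910 to 7140 CPM, and the part of the makeup of neurons was not tested.

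**Figure D5:**
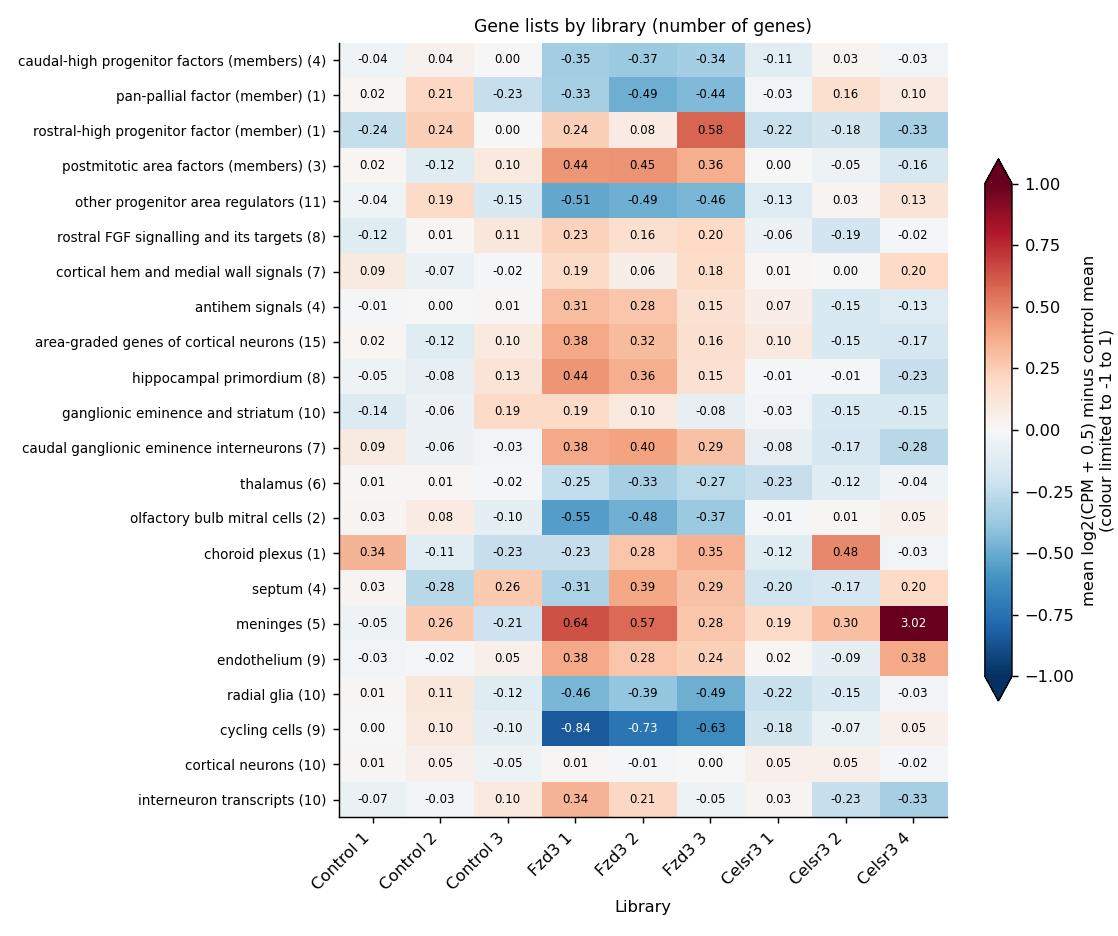
Mean over each gene list of log2(CPM + 0.5) minus the control mean of the same gene (colour, limited to -1 to 1, and printed value) in each of the 9 libraries, with the number of genes in brackets. Cycling cells lie between -0.84 and -0.63 in *Fzd3* mutants, cortical neurons between -0.05 and 0.05 in all libraries, and meninges reach 3.02 in *Celsr3* mutant 4.

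Tissue that borders the cortex was looked at through markers, since uneven dissection would add or remove it. Some genes sit in more than 1 of these lists, *Prox1*, *Lhx9*, *Lef1*, *Tbr1*, *Lhx6* and *Dlx1* among them. The counts for these tissues stand beside 14.8% of all genes called lower and 15.0% called higher in *Fzd3* mutants than in controls. Of 8 genes of the hippocampal primordium, 2 were lower and 4 higher in *Fzd3* mutants than in controls (median 0.08), with a summed level of 1620, 1640 and 1580 CPM in controls, 1790, 1770 and 1750 CPM in *Fzd3* mutants and 1660, 1690 and 1650 CPM in *Celsr3* mutants. Most of that sum was *Zbtb18* (0.25, adjusted p = 0.000928), which cortical neurons also express. *Prox1*, a marker of dentate granule cells and of interneurons from the caudal ganglionic eminence, was at 14.3, 13.0 and 10.0 CPM in *Fzd3* mutants against 5.90, 6.01 and 5.97 CPM in controls (0.99, adjusted p = 0.00041). *Grik4*, a kainate receptor gene of hippocampal neurons, was higher (1.28, adjusted p = 0.000183), as was *Nr3c2* (1.10, adjusted p = 0.0142), while *Lhx9* (-0.68, adjusted p = 0.0212) and the more abundant *Meis2* (-0.14, adjusted p = 0.0103) were lower, *Meis2* at 351 to 357 CPM against 381 to 395 CPM in controls, without overlap. *Nr3c2* and *Lhx9* each lost their call in 3 fits that left out a library, with adjusted p up to 0.0622 and 0.0699.

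Of 20 genes of the ganglionic eminence and striatum, 10 were analysed here, with 1 lower (*Ebf1*, -0.67, adjusted p = 0.037) and 1 higher (*Drd1a*, 0.41, adjusted p = 0.0433) in *Fzd3* mutants, a median of 0.07, and a summed level of 192, 198 and 214 CPM in controls, 227, 218 and 182 CPM in *Fzd3* mutants and 197, 172 and 161 CPM in *Celsr3* mutants. *Ebf1* and *Drd1a* were each lost in several fits that left out a library (adjusted p up to 0.0934 and 0.112). The list had 0 calls in limma without *Fzd3* mutant 1, *Fzd3* mutant 2 or control 2. *Dlx1*, the most abundant, was not called (-0.06, adjusted p = 0.678). Of 8 genes of interneurons from the caudal ganglionic eminence, 7 were analysed here, 1 was lower and 2 higher (median 0.45), and the sums were 52.7, 50.5 and 50.6 CPM in controls, 70.3, 69.6 and 63.0 CPM in *Fzd3* mutants and 49.0, 48.2 and 44.2 CPM in *Celsr3* mutants. Besides *Prox1*, *Npas1* was higher (0.67, adjusted p = 0.00666), and *Sp9*, the most abundant in controls, was lower (-0.30, adjusted p = 0.041), though not in 7 fits that left out a library (up to 0.147). Against *Celsr3* mutants 5 of 7 were higher, *Htr3a* (1.37, adjusted p = 0.00124), *Calb2* (0.81, adjusted p = 0.00738) and *Adarb2* (0.43, adjusted p = 0.0251) among them, in the comparison in which *Sp8* was called too. Since interneurons of this origin can express *Sp8* and *Nr2f2*, the values are given beside theirs, and their part in the result was not tested. Of 10 interneuron transcripts, 1 was higher than in controls, *Npy* (1.94, adjusted p = 2.46e-06), at 75.2, 72.2 and 57.3 CPM against 16.0, 18.8 and 17.0 CPM, and the median was -0.03. Without *Fzd3* mutant 3, 2 of the interneuron transcripts were called.

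Of 8 genes of the thalamus 6 were analysed here, 2 were lower, *Tcf7l2* (-0.51, adjusted p = 0.0484) and *Lhx9*, and the sums were 112, 105 and 110 CPM in controls, 98.9, 101 and 97.9 CPM in *Fzd3* mutants and 103, 107 and 111 CPM in *Celsr3* mutants. *Tcf7l2* was lost in 5 fits that left out a library (up to 0.158), and *Slc17a6*, the most abundant, was not called (-0.15, adjusted p = 0.103). For the olfactory bulb, 2 of 6 mitral cell genes were analysed here, *Tbr1* and *Eomes*, both also genes of cortex, and both were lower, with sums of 525, 541 and 484 CPM in controls, 384, 388 and 409 CPM in *Fzd3* mutants and 521, 504 and 525 CPM in *Celsr3* mutants. For choroid plexus only *Car12* was analysed here, 1 of 8 genes, at 1.39 to 2.61 CPM over the 9 libraries and not called (0.13, adjusted p = 0.696). Of 5 septal genes 4 were analysed here, and in limma 0 were called and 0 had an unadjusted p under 0.05. They summed to 24.5, 21.2 and 30.5 CPM in controls and 19.0, 31.7 and 30.8 CPM in *Fzd3* mutants, with *Zic1* the most abundant (0.23, adjusted p = 0.413). In the 9 endothelial genes, of which *Nr2f2* is also described above, 3 were higher in *Fzd3* mutants, *Flt1* (0.85, adjusted p = 0.00054), *Kdr* (0.58, adjusted p = 0.0049) and *Cldn5* (0.53, adjusted p = 0.00879), with sums of 151, 149 and 171 CPM in controls, 205, 187 and 178 CPM in *Fzd3* mutants and 156, 141 and 189 CPM in *Celsr3* mutants. Of 5 meningeal genes, 0 were called in limma in either comparison with control, and 1 in each had an unadjusted p under 0.05. Without *Celsr3* mutant 4, the library with high meningeal RNA, 2 meningeal and 5 endothelial genes were called between *Fzd3* mutants and controls. Without *Fzd3* mutant 1, 1 septal gene was called, and without *Fzd3* mutant 2, 0 thalamic genes were called in limma. The part of these tissues in the levels of the area factors was not tested.

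In *Celsr3* mutants 0 genes of these 18 lists were called against control in limma, and the number with an unadjusted p under 0.05 was highest for the interneuron transcripts, 4 of 10. Medians lay between -0.20, for interneuron transcripts, and 0.15, for endothelium, apart from 1.32 for meninges, which *Celsr3* mutant 4 sets apart. Between the mutants, 14.3% of all genes were called lower and 15.3% higher in *Fzd3* libraries. *Fzd3* libraries were lower in 9 of 9 cycling cell genes, 6 of 10 radial glia genes (2 higher), 4 of 10 cortical neuron genes (2 higher) and 2 of 2 mitral cell genes. They were higher in 7 of 15 area-graded genes (3 lower), 3 of 8 FGF genes, 2 of 7 hem genes (2 lower), 3 of 4 antihem genes, 4 of 8 hippocampal genes (1 lower), 4 of 10 ganglionic eminence genes (1 lower), 4 of 10 interneuron genes, 2 of 9 endothelial genes and 1 of 6 thalamic genes (1 lower). In choroid plexus, septum and meninges 0 were called between the mutants in limma, and 1, a meningeal gene, had an unadjusted p under 0.05. Several of these calls hung on a library. Fits that left out a library lost *Dmrt3* in 6, *Tgfa*, *Cyp26b1* and *Pcdh8* in 5 each, and *Lef1* and *Adarb2* in 4 each, with adjusted p up to 0.237 for *Pcdh8* over all 19 settings. Without *Celsr3* mutant 2 the counts between the mutants were 6 for area-graded genes, 2 for the ganglionic eminence, 3 for interneurons of the caudal ganglionic eminence, and 1 each for antihem, interneuron, endothelial and meningeal genes. Without *Celsr3* mutant 4, 5 endothelial genes were called.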

How the data were processed

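Per the labels and the study's methods, RNA of microdissected cortex was made into Illumina libraries and analysed by a sequencing company. The submitters' processing notes name FastQC, TopHat, TopHat2, Bowtie, Cufflinks 2.1.1 and edgeR 2.12 without their roles, and the labels name Trizol where the methods name an RNeasy kit. The authors deposited CPM values in a single table, scaled by library, though not by the total of its reads alone. Its lowest gene mean was 0.54 CPM, so weakly expressed genes had been dropped. The neuron genes *Tubb3* and *Neurod1* were also not listed, and a missing gene is not thereby shown to be weakly expressed. In each column 100% of values were whole multiples of a step, within 0.1 of a step, and depth was read from that step. Columns not used numbered 0.

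Genotypes were taken from the labels. R 4.3.3 with limma 3.58.1 (lmFit, contrasts, eBayes with a trend) was fitted to log2(CPM + 0.5) for genes whose mean reached 0.5 CPM, and the fit was also run on made data with known changes. Tables and figures were made with Python 3.11.15, numpy 2.4.6, pandas 2.3.3 and matplotlib 3.10.9. Positions and exon lengths came from GENCODE M21 on GRCm38. Libraries of a genotype differed by 4.59 to 9.73 times the chi-square of sampling noise, so none was a second run of the same library. The ratio cannot show whether libraries shared an embryo or RNA. The floor of 3 reads covers counting error only.

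Genes named were the 9 members, genes drawn from those of the lists that were called in any comparison or most abundant, and for each called member the 3 genes nearest in centred log2(CPM + 0.5). Some list genes are not reported here by name. Genes on the opposite strand of a member were added after their values were seen. The members and lists were chosen with earlier results of these data known.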

Additional observations from a re-analysis of the deposited data

How the results depend on the processing

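Of 13 called differences of the 9 genes, 7 kept their call in all 19 other settings, and 0 changed sign. The 19 settings were other pseudocounts, filters, scalings, a fit of the compared genotypes alone, a replicate block, no trend of the variance, precision weights from reads (chosen after seeing the data) and each library left out. Without a filter the fit was the main one, since the lowest mean of a gene was 0.54 CPM. The other scalings had factors of 0.9971 to 1.004, so these settings could change little. Planned count tests with edgeR and DESeq2 were not run, and the precision weights used reads worked out from the step between values. Over fits that left out a library, genes called numbered 2958 to 4312 for *Fzd3* mutant against control, 39 to 53 for *Celsr3* mutant against control and 2971 to 4471 for the mutants against each other, and members called 3 to 6, 0 and 5 to 8. The lowest count, 3, came without *Fzd3* mutant 2 or control 2, and fewer libraries were fitted in each.

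Replicate numbers are shared between genotypes. Deviations of same-numbered libraries from their genotype means had correlations of -0.07, -0.154 and -0.199 for *Fzd3* mutant and control, 0.192 and -0.08 for the mutants and 0.073 and -0.013 for *Celsr3* mutant and control. Not every library correlated best with its own number, and no source states that a number pairs samples. With a replicate block the counts of genes called were 3629, 29 and 2101, and of members 5, 0 and 4, in the order above. Under it *Nr2f1* was not called against control (adjusted p = 0.0506), and *Emx2* (0.0778), *Nr2f1* (0.0981) and *Sp8* (0.171) were not called between the mutants.

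Sign changes were limited to differences that were not called. Over fits that left out a library, *Lmo3* in *Fzd3* mutants ran from -0.01 (without control 1) to 0.10, and in *Celsr3* mutants *Nr2f1* ran from -0.02 (without control 1) to 0.07 and *Emx1* from -0.04 (without control 3) to 0.18. *Emx2* in *Celsr3* mutants was at 0.00 with median-ratio scaling, 0.01 with the block and 0.06 without *Celsr3* mutant 1 or control 2. *Nr2f2* between the mutants was at -0.07 with the block and ran from -0.03 (without *Fzd3* mutant 1) to 0.18. The cause was not tested. With the longest transcript as the length, 3 of 9 genes kept their place by level in controls. The caudal minus rostral balance of *Celsr3* mutants was 3.16 with a pseudocount of 1 CPM and 3.47 with 0.1 CPM, settings added after the data were seen, since *Sp8* is low. Of 111 called differences of list genes, 72 held in all these settings and 0 changed sign, and 23 of 54 list counts moved by more than 1.5 times in at least 1 setting, mostly counts of few genes.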

Other observations

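Genes were also ranked by how closely their values followed each called member over the 9 libraries, as the root mean square difference of log2(CPM + 0.5), each gene centred on its own mean, among the 11585 genes whose mean reached 5 CPM. Nearest to *Emx2* was *Otx1*, a homeodomain gene of cortical progenitors and deep-layer neurons, at 18.2 CPM in controls, 14.2 CPM in *Fzd3* mutants and 17.8 CPM in *Celsr3* mutants (mean), with a distance of 0.04, followed by *Efcab14* (0.04) and *Plagl2* (0.042). *Tacc1*, *Foxo6* and *Adamts3* were nearest to *Emx1*, at 0.063, 0.067 and 0.068. For *Dmrta2* they were *Gadd45g* (0.094), *Fzd2*, a Frizzled gene of progenitors (0.102), at a mean of 30.1 CPM in controls and 18.6 CPM in *Fzd3* mutants, and *Slc30a10* (0.107). After its antisense partner *A830082K12Rik* (0.043), *Nr2f1* was followed by a gene listed under the date-like symbol 9-Sep (0.044) and *Ubald2* (0.045).

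Among the genes that were higher in *Fzd3* mutants, *Bhlhe22* was nearest to *Eml1* (0.031), *Bend6* (0.037) and the synaptic vesicle gene *Syn1* (0.039), at means of 118, 84.3 and 92.0 CPM in controls and 160, 113 and 128 CPM in *Fzd3* mutants. *Lmo4* was nearest to *Fam81a* (0.088), *Mrgpre* (0.089) and *Hpcal4* (0.094), the last at 16.6 CPM in controls, 27.4 CPM in *Fzd3* mutants and 14.8 CPM in *Celsr3* mutants. *Sp8* was nearest to *Tspan11* (0.087), *Gm10040* (0.102) and *Pdgfb* (0.129). Likeness over 9 libraries in 3 genotypes mostly reflects the difference between genotypes, and says nothing of shared control.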
